A study of Mus musculus with 2 samples.

Results

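The cells described here are 111 sorted adipocyte precursor cells with at least 2 captured transcripts of Rrm2, Tyms or both and at most 1 of Mki67 and Top2a. Rrm2 encodes the regulated subunit of ribonucleotide reductase and Tyms encodes thymidylate synthase, and both enzymes supply deoxynucleotides for DNA replication. A cell was a member with at least 500 detected genes, at most 10% of UMIs (unique molecular identifiers, each counting 1 captured transcript) from mitochondrially encoded genes, at least 2 UMIs of Rrm2 and Tyms together, and fewer than 2 UMIs of Mki67 and Top2a together. Of 6905 barcodes, 6885 passed the first 2 conditions, and 111 of these (1.61%, exact Clopper-Pearson 95% interval 1.33 to 1.94%) passed all of them. They are called the Rrm2/Tyms class. They were set beside 215 cells with at least 2 UMIs of Mki67 and Top2a (the Mki67/Top2a class, 3.12% of kept cells) and 5388 cells with no UMI of any of the 4 genes (the no-cycle class, 78.3%). The other 1171 cells fell in no class.

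The cells came from subcutaneous adipose tissue of WT mouse pups aged 12 days, cross-fostered onto dams whose milk fat had a high or a low n-6/n-3 polyunsaturated fatty acid ratio. There was 1 sample of each diet, with 3000 sorted cells per condition stated in the labels, which speak in one place of fresh cells and in another of cryopreserved cells that had been thawed. Whether animals were pooled was not given in the sources used here. The deposited matrix joins both libraries under barcode suffixes 1 and 2, whose diets the labels do not give. The libraries are therefore called library 1 and library 2, no diet comparison was made, and with 1 library a condition no test between conditions was possible. The class was cut out by its UMIs of 4 genes, so the comparisons below are descriptions without a test, and every interval covers counting error only.

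A cell that commits to division switches on E2F target genes at the passage from G1 to S phase. These include the MCM helicase and its loaders, which license replication origins, then the polymerases, clamp and ligase of the fork and the enzymes of nucleotide supply. Core histone transcripts accumulate while DNA is being copied. Genes of mitosis, Mki67 and Top2a among them, rise later, under the control of DREAM and B-Myb complexes that act at CHR promoter elements. In growing subcutaneous fat, dividing precursors add to the pool from which adipocytes form.

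Promoters of genes from both ends of this order are shown first, as a description of sequence only. Mki67 and Top2a themselves are low in the class through the rule. Other G2 and mitosis genes may be low through it too, which was not tested. Each line gives the 200 bases before the RefSeq start on the gene's strand, 5′ to 3′ (build GRCm38.p6), for 2 helicase subunits with an E2F motif and 3 late genes with a CHR motif. They were kept from a longer set of candidates for a match in these bases and a window outside the GENCODE gene. Ccnb2 holds another CHR match just after its start, outside the printed bases. For 3 of the 5 genes, bases 31 to 50 after the start stood in the first 600 bases of a GENCODE transcript. Capitals mark E2F motifs (TTTGGCGC, TTTCGCGC or TTTCCCGC on either strand, overlaps allowed) in Mcm5 and Mcm6, and the CHR motif (TTTGAA on either strand) in Ccnb2, Mki67 and Top2a.
Mcm5, chr8:75109309-75109508, plus strand: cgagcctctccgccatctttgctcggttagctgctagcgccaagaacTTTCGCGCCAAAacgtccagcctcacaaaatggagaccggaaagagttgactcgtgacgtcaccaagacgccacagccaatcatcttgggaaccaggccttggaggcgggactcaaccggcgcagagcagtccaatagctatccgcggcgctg
Mcm6, chr1:128359706-128359905, minus strand: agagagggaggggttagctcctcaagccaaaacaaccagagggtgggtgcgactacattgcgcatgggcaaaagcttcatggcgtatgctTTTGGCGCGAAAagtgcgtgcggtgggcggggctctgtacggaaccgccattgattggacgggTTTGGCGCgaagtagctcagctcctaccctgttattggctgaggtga
Ccnb2, chr9:70421555-70421754, minus strand: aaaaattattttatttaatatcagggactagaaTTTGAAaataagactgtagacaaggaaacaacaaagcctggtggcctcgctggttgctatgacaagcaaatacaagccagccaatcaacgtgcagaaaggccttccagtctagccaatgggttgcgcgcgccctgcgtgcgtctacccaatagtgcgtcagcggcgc
Mki67, chr7:135716380-135716579, minus strand: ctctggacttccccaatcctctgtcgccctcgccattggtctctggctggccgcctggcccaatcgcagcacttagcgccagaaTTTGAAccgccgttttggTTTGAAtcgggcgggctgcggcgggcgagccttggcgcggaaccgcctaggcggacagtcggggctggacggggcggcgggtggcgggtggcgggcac
Top2a, chr11:99024190-99024389, minus strand: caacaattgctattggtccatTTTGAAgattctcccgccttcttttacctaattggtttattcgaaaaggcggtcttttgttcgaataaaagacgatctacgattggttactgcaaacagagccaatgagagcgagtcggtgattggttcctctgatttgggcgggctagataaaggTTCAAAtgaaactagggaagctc

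Over RefSeq promoters of 250 bases before to 50 after the start, an E2F motif stood in 9 of the 20 licensing and origin-firing genes with a promoter (45%), against 573 of all 27025 genes (2.12%). Among the genes of E2F and G1/S cyclin control it stood in 7 of 15 promoters, among replication fork genes in 9 of 27, and among G2 and mitosis genes in 4 of 55. The CHR motif showed the other order, with 37 of 55 G2 and mitosis promoters (67.3%) and 5 of 20 licensing promoters, against 5466 of 27025 (20.2%). Rrm2, Tyms and Pcna held none of the 3 E2F spellings in this window. A match is a description of letters and not a measured site.

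The rule left little room above its own limit. Of the 111 members, 96 had exactly 2 Rrm2 and Tyms UMIs, 13 had 3 and 2 had 4. Tyms alone (chromosome 5, 30058202 to 30073617 on the minus strand, mm10 with GENCODE vM21) accounted for 70 cells, Rrm2 alone (chromosome 12, 24708241 to 24714146 on the plus strand) for 13, and 28 cells held both. Mki67 and Top2a were both at 0 in 88 members, and 23 members had 1 UMI. Just outside the rule lay 725 cells with 1 Rrm2 or Tyms UMI and fewer than 2 of Mki67 and Top2a, and 6 cells with enough Rrm2 and Tyms but exactly 2 Mki67 and Top2a UMIs. Tyms stood at 103 CPM (UMIs of a gene scaled to a class total of 1e+06 UMIs) in library 1 and 118 in library 2 in the Rrm2/Tyms class. These values, and the 0 of all 4 genes in the no-cycle class, follow from the rule.

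Members came from both libraries in like shares, 49 of 3307 cells in library 1 (1.48%, 1.10 to 1.95%) and 62 of 3578 in library 2 (1.73%, 1.33 to 2.22%). The median member had 14561 UMIs, against 16162 in the Mki67/Top2a class and 12245 in the no-cycle class, and the class held 1602949 UMIs in all. Since a deeper cell reaches 2 UMIs more easily, every cell was also thinned to 7470 UMIs, the 10th percentile of kept cells. After thinning, 34 of 6196 cells (0.549%) met the rule. The rule was applied anew to the thinned counts, so these cells can include some of the Mki67/Top2a class. The part of depth in the choice of members was not tested further. Barcode sequences shared by the libraries numbered 17, and 2 members carried such a barcode.

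Genes that license and fire origins stood between the other classes in level. The 26 listed genes summed to 288 CPM in the Rrm2/Tyms class (262 to 315), against 520 in the Mki67/Top2a class and 122 in the no-cycle class. The level was 2.35-fold that of no-cycle cells (2.13 to 2.58), with 2.05-fold in library 1 and 2.56-fold in library 2, and 0.553-fold that of Mki67/Top2a cells. Of the 26 members, 22 lay above the no-cycle level and 23 below the Mki67/Top2a level. Over all genes with at least 20 CPM in a class compared, 2842 of 4849 lay above the no-cycle level and 2976 of 5265 below the Mki67/Top2a level. The 26 members were counted without that minimum, so these shares do not have a like basis. In thinned cells, 3 or more licensing UMIs were found in 31 of 102 members (30.4%, 21.7 to 40.3%), in 60.7% of Mki67/Top2a cells and in 7.21% of no-cycle cells (without thinning 45.9, 78.6 and 18.8%). The median thinned cell held 1, 4 and 1 licensing UMIs in the Rrm2/Tyms, Mki67/Top2a and no-cycle classes. In the bars of licensing UMIs per cell, 32 of the 102 members had no licensing UMI, 39 had 1 or 2, 18 had 3 or 4 and 13 had 5 or more. Many Mki67/Top2a cells also had fewer than 3 licensing UMIs, and whether low counts in either class come from depth was not tested. The share of members in S phase cannot be read from these counts. The class is therefore called here by the genes of its rule and not replicating precursors.

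**Figure D1:**
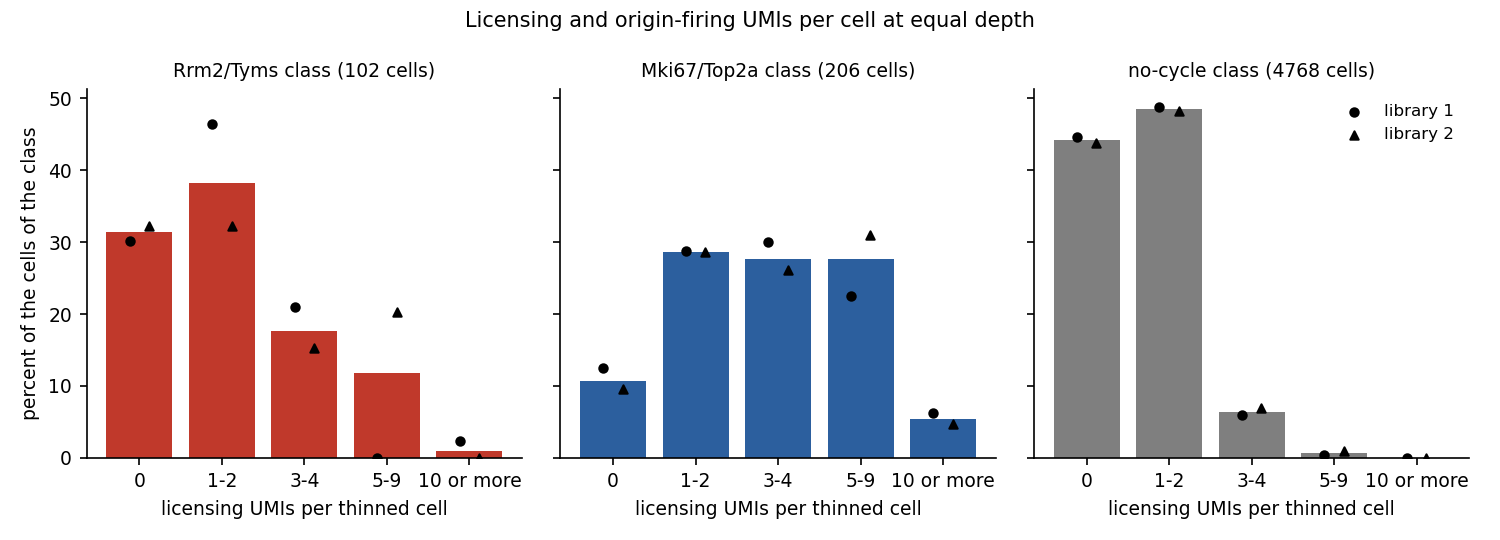
Percent of thinned cells (y axis) by number of licensing and origin-firing UMIs per cell (x axis) in the Rrm2/Tyms, Mki67/Top2a and no-cycle classes; bars are both libraries, circles library 1 and triangles library 2. Cells with 3 or more such UMIs make up 30.4% of the Rrm2/Tyms class, 60.7% of the Mki67/Top2a class and 7.21% of the no-cycle class.

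The MCM subunits, which form the helicase loaded at origins, differed among themselves in how close they came to the Mki67/Top2a level. Mcm6 (chromosome 1, 128331590 to 128359664, minus strand) reached 36.2 CPM in library 1 and 50.9 in library 2 in the Rrm2/Tyms class, against 52.8 CPM in Mki67/Top2a cells and 13.3 in no-cycle cells of both libraries together. Mcm5 (chromosome 8, 75109569 to 75128439, plus strand) stood at 23.7 CPM in each library, against 33.6 in Mki67/Top2a cells and 3.11 in no-cycle cells, a log2 fold of 2.93 over the no-cycle class. Its level rests on 38 UMIs in 25 of the 111 cells. Mcm4 reached 22.5 CPM, against 28.8 and 9.14, and Mcm3 18.1 CPM, against 27.4 and 4.79. Gins2, a subunit of the GINS part of the active helicase, reached 28.1 CPM, against 42.9 and 8.07, and Orc6 of the origin recognition complex 26.8 CPM, against 38.7 and 13.9. Both libraries showed 17 of the 26 licensing genes above the no-cycle class, these 6 among them. The same count over all genes is not given here, so nothing is read from it. Mcm7 and Mcm2 were lower, at 11.2 CPM each, against 38.7 and 20.05 in Mki67/Top2a cells and 6.19 and 3.94 in no-cycle cells. Dbf4, the activating partner of the Cdc7 kinase that fires origins, stood far from the Mki67/Top2a level, at 4.37 CPM against 46.0 and 3.16. Gmnn, whose protein geminin blocks relicensing, lay between, at 13.9 CPM in library 1 and 24.9 in library 2, against 45.7 and 2.34.

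At the fork, the 35 genes found summed to 883 CPM in the Rrm2/Tyms class, 1701 in the Mki67/Top2a class and 519 in the no-cycle class, which is 1.70-fold the no-cycle level (1.61 to 1.79). All 35 lay above the no-cycle level in the sum of both libraries, where 2842 of the 4849 genes compared did. The 35 were counted without the level minimum of the 4849. Pcna, the sliding clamp (chromosome 2, 132249162 to 132253314, minus strand), had 58.5 CPM in library 1 and 89.3 in library 2 in Rrm2/Tyms cells, against 141 and 138 in Mki67/Top2a cells and 29.6 and 33.0 in no-cycle cells. Of the 111 members, 59 held a Pcna UMI. Lig1, the ligase that joins Okazaki fragments, reached 42.4 CPM, against 75.1 and 8.78. Tipin, a fork protection factor, reached 68.6 CPM, against 96.3 and 37.1. Pola2, a subunit of the primase-polymerase, was at 23.7 CPM, against 18.9 in Mki67/Top2a cells and 12.4 in no-cycle cells. The PCNA-associated factor Pclaf, given in the file as 2810417H13Rik, was different: it stood at 32.4 CPM, against 315 and 3.69, so it was 8.78-fold the no-cycle level and 0.103-fold the Mki67/Top2a level.

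Nucleotide supply beyond the rule genes showed less. The 26 genes summed to 1210 CPM in the Rrm2/Tyms class, 1645 in the Mki67/Top2a class and 1019 in the no-cycle class, 1.19-fold the no-cycle level (1.13 to 1.24). Dut, which removes dUTP, reached 76.7 CPM, against 159 and 40.4 in Mki67/Top2a and no-cycle cells, and Rrm1, the large subunit that pairs with Rrm2, 29.9 CPM, against 83.9 and 15.6. Housekeeping members such as Nme2 were level across the classes at 391, 412 and 393 CPM in Rrm2/Tyms, Mki67/Top2a and no-cycle cells.

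Regulators of the G1 to S passage were close to one another in level across the classes, at a summed 852, 917 and 711 CPM in the same order. Ccnd3, Ccnd2 and Cdk4 made up most of that sum and are carried by cells of every class. E2f1, an activator of the S phase genes, was at 44.9 CPM in Rrm2/Tyms cells, against 45.5 in Mki67/Top2a cells and 24.3 in no-cycle cells, but its log2 fold over no-cycle cells was 0.38 in library 1 and 1.20 in library 2. Ccne1 and Ccne2, the cyclins that drive S phase entry, were at 9.98 and 6.86 CPM in the Rrm2/Tyms class, against 27.1 and 25.4 in the Mki67/Top2a class and 4.93 and 0.831 in the no-cycle class.

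Chromatin assembly divided by gene. Hells, a chromatin remodeller that aids maintenance methylation, reached 24.3 CPM in Rrm2/Tyms cells, against 29.4 and 3.49 in Mki67/Top2a and no-cycle cells. Uhrf1, which brings the maintenance methyltransferase Dnmt1 to new DNA, reached 17.5 CPM, against 28.5 and 1.68, and Dnmt1 itself 23.7 CPM in library 1 and 17.0 in library 2, against 27.7 and 8.34. The abundant H2afz and Hmgb2, a histone variant and a chromatin protein, stood at 521 and 69.9 CPM, against 1934 and 460 in Mki67/Top2a cells and 386 and 31.6 in no-cycle cells. Genes of the damage checkpoint and repair summed to 235, 412 and 135 CPM in the Rrm2/Tyms, Mki67/Top2a and no-cycle classes. Of the 31 listed, 25 lay below the Mki67/Top2a level, where 2976 of the 5265 genes of at least 20 CPM did. Usp1 was 1 of these 25, at 30.6 CPM, against 83.3 and 15.0 in Mki67/Top2a and no-cycle cells. Ung, which removes uracil from DNA, went the other way, at 13.1 CPM, against 7.91 and 3.19. So did Exo1, an exonuclease of mismatch repair, with 8 UMIs (4.99 CPM), against 3.95 and 0.108 CPM.

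**Figure D2:**
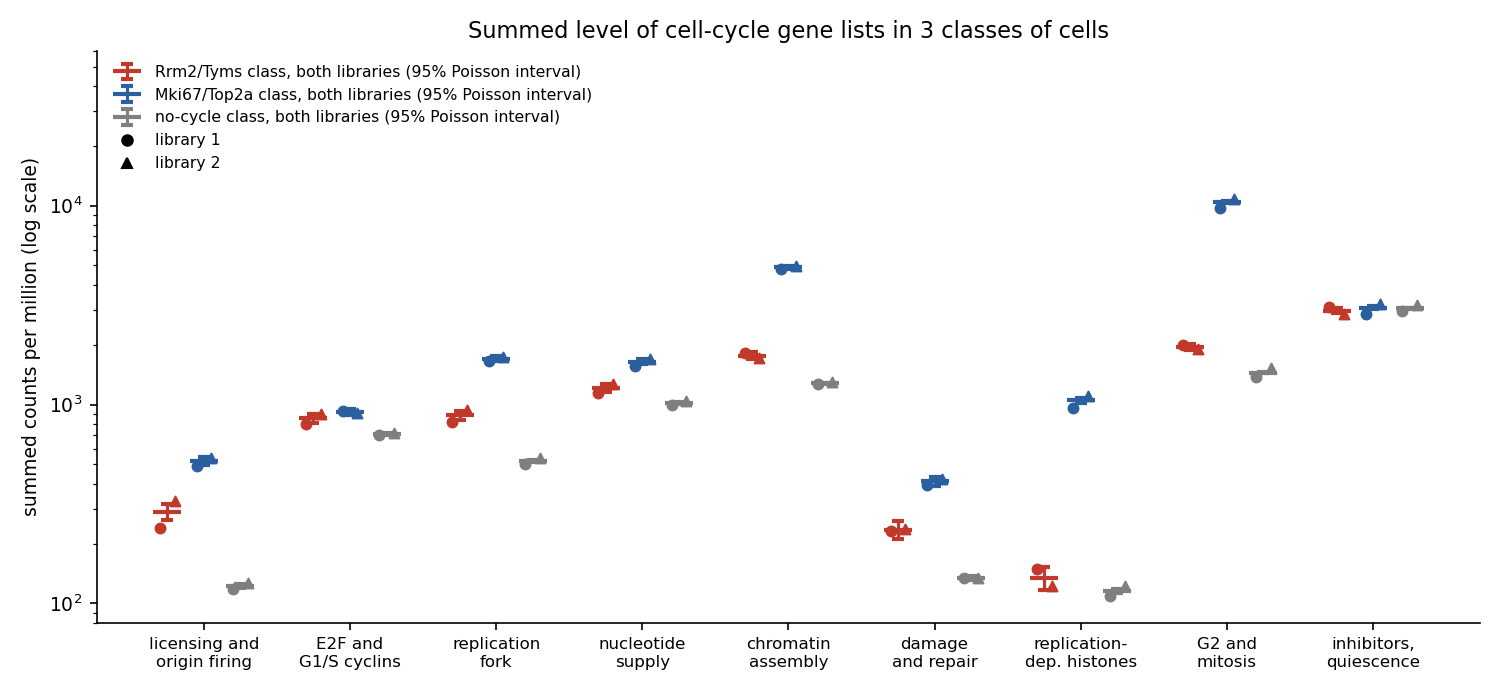
Summed CPM (log scale) of 9 gene lists in the Rrm2/Tyms class (red), the Mki67/Top2a class (blue) and the no-cycle class (grey); dashes with bars are both libraries with 95% Poisson intervals, circles library 1 and triangles library 2. Licensing, fork and repair genes of the Rrm2/Tyms class lie between the other classes, while its replication-dependent histones, at 134 CPM, and G2 and mitosis genes, at 1948 CPM, lie nearer the no-cycle class.

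In sum, the histone genes that accumulate during DNA synthesis stayed near the no-cycle level. The 66 replication-dependent histone genes summed to 134 CPM in the Rrm2/Tyms class (117 to 153), 1049 in the Mki67/Top2a class and 116 in the no-cycle class. In library 1 the sums were 149, 959 and 109 CPM and in library 2 they were 122, 1109 and 123 CPM, so the class was above no-cycle cells in library 1 only. The sum moved with the cut, however: it was 319 CPM, or 2.64-fold the no-cycle level, in the 34 cells that met the rule after thinning. These need not be members, since cells of the Mki67/Top2a class can fall under its limit when thinned. Their part in this sum was not tested. Hist1h2ap, the most abundant of them in Mki67/Top2a cells, had 14.3 CPM in Rrm2/Tyms cells, against 549 and 3.22. That is 4.46-fold the no-cycle level, so the sum does not describe each member. H2afx and Hist1h1c, at 28.9 and 21.8 CPM, made up a large part of the no-cycle sum. They stood at 30.6 and 17.5 CPM in Rrm2/Tyms cells. Most histone transcripts of this kind end without a poly(A) tail, and this library chemistry primes on poly(A), so their levels are those of the captured fraction. These genes are near-identical copies in clusters, and reads may be divided among them.

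Genes of G2 and mitosis set the Rrm2/Tyms class apart from the Mki67/Top2a class, which was defined by 2 such genes. The 70 genes summed to 1948 CPM in the Rrm2/Tyms class, 10378 in the Mki67/Top2a class and 1446 in the no-cycle class, which is 0.188-fold and 1.35-fold. All 70 were below the Mki67/Top2a level, where 2976 of the 5265 genes compared were, and 55 were above the no-cycle level. The 70 were counted without the level minimum of the 5265. Cenpf, a kinetochore protein, had no UMI in the class, which makes it at least 67.0-fold lower than the 125 CPM of Mki67/Top2a cells, taking 3 counts over the class as the floor. Ube2c, the ubiquitin-conjugating enzyme of the anaphase-promoting complex, had 7.49 CPM, against 365 and 6.34. Ccnb2 and Ccna2, cyclins of mitosis and of S to G2 phase, had 3.74 CPM each, against 168 and 141 in Mki67/Top2a cells and 5.27 and 2.11 in no-cycle cells. Cdk1, their kinase partner, was an intermediate at 16.2 CPM, against 160 and 3.53. Stmn1, a microtubule regulator, stood at 76.7 CPM, against 724 and 27.0, and the abundant tubulins Tuba1b and Tubb5 at 568 and 444 CPM, against 1948 and 1420 and against 401 and 303.

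To place each gene between the other classes, the excess over no-cycle cells in the Rrm2/Tyms class was divided by the excess in the Mki67/Top2a class. Only genes with at least 20 CPM in Mki67/Top2a cells and at least 2-fold their no-cycle level were used. This choice does not read the Rrm2/Tyms values, but it picks genes high in the class that is also the divisor. It left out genes such as Pola2, at 23.7 CPM against 18.9 in Mki67/Top2a cells. The Mki67/Top2a class was itself cut by Mki67 and Top2a, genes of mitosis. The medians below thus describe the chosen genes and support nothing. The median of 10 licensing genes was 54.8%, led by Mcm6 at 78.5%, Mcm4 at 67.7% and Mcm5 at 67.6%, with Dbf4 lowest at 2.82%. Over 21 fork genes it was 40.0%, with Pold2 highest at 64.3%, and over 16 chromatin genes 21.8%, with Hells highest at 80.5%. Over 58 G2 and mitosis genes it was 3.02%, with a highest value of 19.8%, and over 6 histone genes 2.74%. Library 1 gave 61.2, 43.3 and 67.4% for Mcm6, Mcm4 and Mcm5, and library 2 gave 92.1, 96.7 and 67.5%. Single genes of this level carry wide counting error, so neighbours in the order are not told apart.

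**Figure D3:**
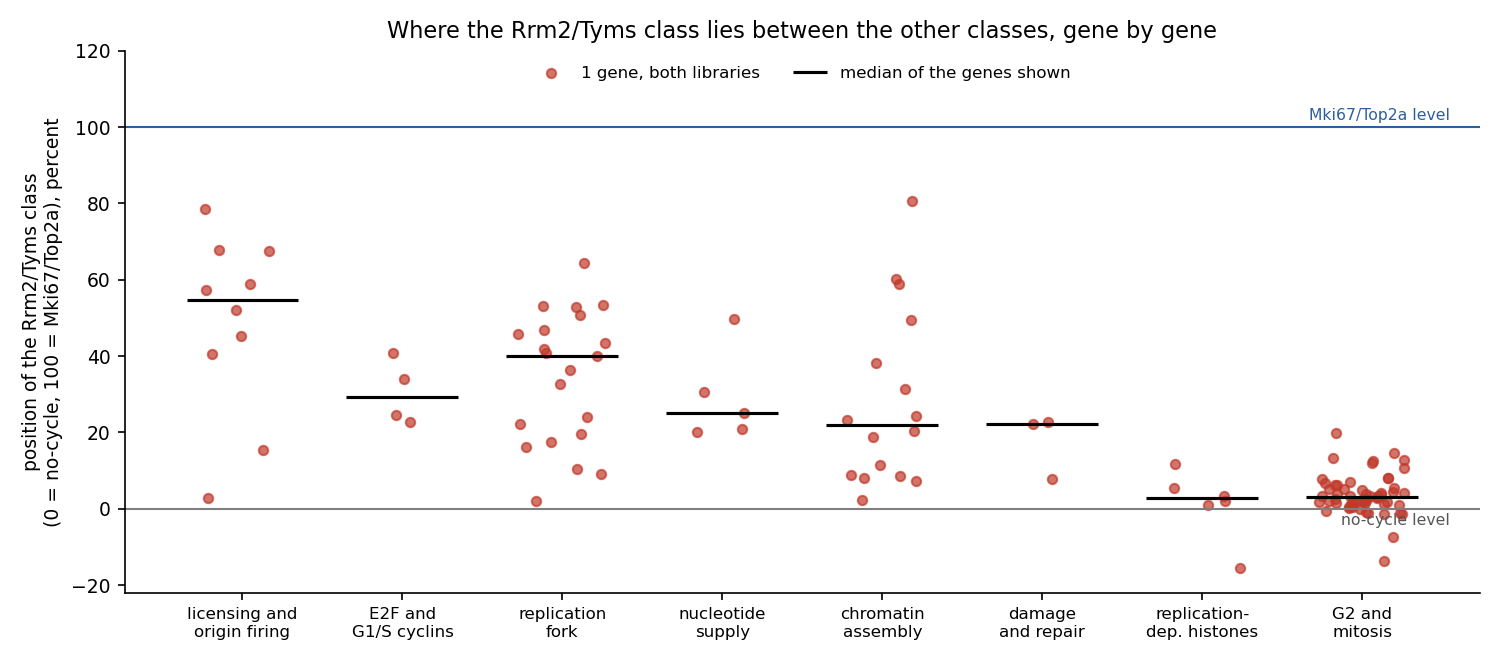
Position of the Rrm2/Tyms class between the no-cycle level (0) and the Mki67/Top2a level (100%) on the y axis for each gene with at least 20 CPM and a 2-fold excess in Mki67/Top2a cells, by gene list on the x axis; points are genes over both libraries and lines are medians. The licensing median lies at 54.8% and the G2 and mitosis median at 3.02%, among genes chosen by their Mki67/Top2a level.

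The levels also followed the number of Rrm2 and Tyms UMIs among cells with fewer than 2 UMIs of Mki67 and Top2a. Licensing genes summed to 124 CPM in cells with 0 such UMIs, 150 with 1, 256 with 2 and 479 with 3 or 4, and to 520 CPM in Mki67/Top2a cells. Fork genes gave 523, 584, 813, 1311 and 1701 CPM in the same order. G2 and mitosis genes gave 1469, 1625, 1857, 2498 and 10378 CPM, and histones 119, 133, 117, 238 and 1049 CPM. The last step of the rule rests on 15 cells, and its licensing level was 341 CPM in library 1 (7 cells) and 594 in library 2 (8 cells), while its histone level was 380 and 120 CPM. Within the class, the 88 members with no Mki67 or Top2a UMI had 242 licensing CPM and the 23 members with 1 had 461 CPM. Cells with Tyms alone, Rrm2 alone or both had 277, 279 and 316 licensing CPM, with counting intervals that overlap. Mki67/Top2a cells divided in the same way: the 106 with at least 2 Rrm2 and Tyms UMIs had 678 licensing CPM, and the 109 with fewer had 332 CPM. Members thus lay below the Mki67/Top2a cells that met the same Rrm2 and Tyms minimum, but the groups were not matched in level. Rrm2 and Tyms stood at 111 and 145 CPM in those 106 cells, against 38.1 and 111 CPM in members.

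**Figure D4:**
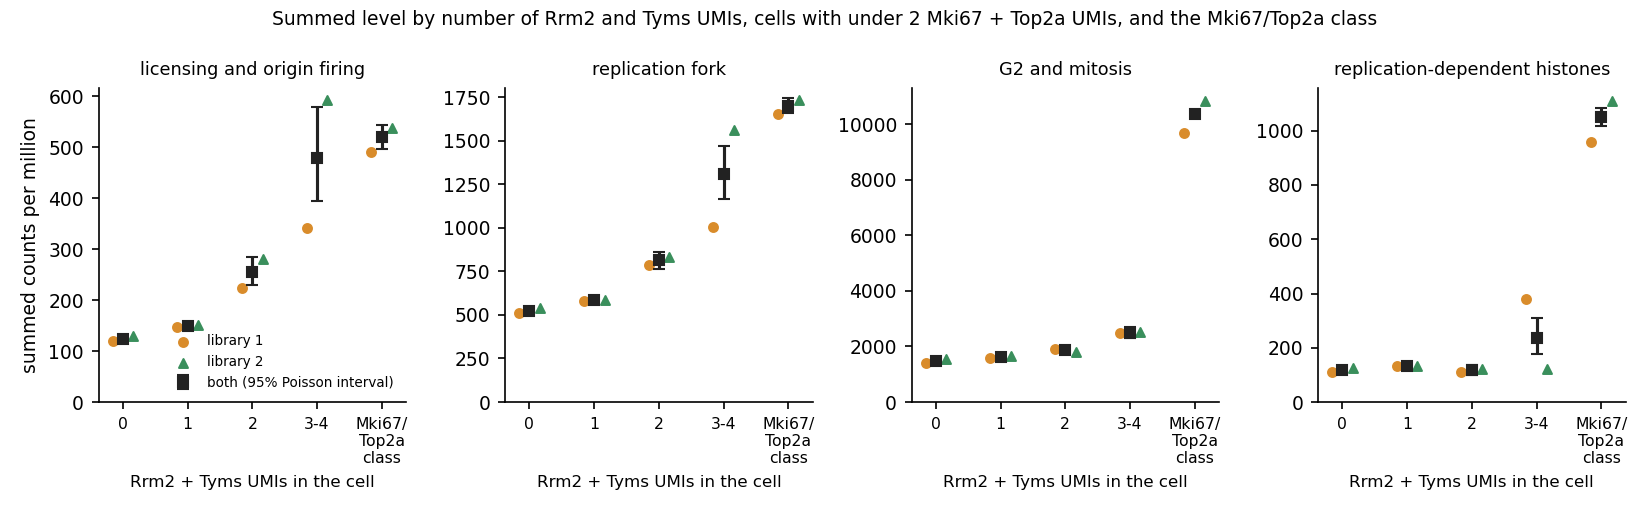
Summed CPM (y axis) of 4 gene lists by number of Rrm2 and Tyms UMIs in cells with fewer than 2 UMIs of Mki67 and Top2a, with the Mki67/Top2a class at the right (x axis); squares are both libraries with 95% Poisson intervals, circles library 1 and triangles library 2. Licensing genes reach 479 CPM at 3 or 4 UMIs beside 520 CPM in the Mki67/Top2a class, while G2 and mitosis genes reach 2498 CPM beside 10378 CPM.

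The rule found few of the cells rich in licensing transcripts. Of 145 thinned cells with 5 or more licensing UMIs, 13 (8.97%, 4.86 to 14.8%) were in the Rrm2/Tyms class and 68 (46.9%) in the Mki67/Top2a class, while 37 (25.5%) were in the no-cycle class and 27 in no class. By class, such cells were 13 of 102 thinned Rrm2/Tyms cells, 68 of 206 Mki67/Top2a cells and 37 of 4768 no-cycle cells. In number, more of them carried no detected UMI of the 4 rule genes than met the rule. In share, they were more common in the Rrm2/Tyms class than in the far larger no-cycle class.

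Across all genes, 4849 had at least 20 CPM in the Rrm2/Tyms or the no-cycle class, leaving out the 4 rule genes. A gene was counted as apart when it differed by at least 1.5-fold in the same direction in both libraries. That held for 54 genes higher in the Rrm2/Tyms class (1.11% of those compared) and 12 lower (0.247%), with a median log2 fold over all compared genes of 0.04. With TMM scaling, which moved that median to −0.07, the counts were 35 higher and 22 lower. Of the 54, 22 belonged to the cell-cycle lists. Among them were 8 of 16 fork genes compared, 5 of 5 licensing, 4 of 14 chromatin and 3 of 14 nucleotide supply genes. The 5 licensing genes compared had a median log2 fold of 1.74 and the 12 G2 and mitosis genes 0.33. All 5 licensing genes passed the 20 CPM minimum through the Rrm2/Tyms class alone. So did 7 of the 16 fork genes, 5 of the 14 nucleotide supply genes and 3 of the 14 chromatin genes, beside 342 of all 4849. These list counts and medians therefore support nothing, and the sums over all members stand in their place. Among genes of at least 50 CPM, the higher ones in order of fold were Stmn1, Pcna, Hmgb2, Dek, Dut, Tipin and Fam111a. Dek, a chromatin protein, stood at 124 CPM, against 297 and 64.7 in Mki67/Top2a and no-cycle cells, and Fam111a, a protease linked to PCNA, at 61.1 CPM, against 96.3 and 39.0. The lower one was Cp, the copper-carrying ferroxidase ceruloplasmin, at 38.1 CPM, against 45.2 and 65.3. Of the 32 higher genes outside the cell-cycle lists, 14 were also above their Mki67/Top2a level. Over all genes compared with that class, 2289 of 5265 were, so nothing is read from this count. Parp1, a DNA break sensor, was at 33.1 CPM, against 19.2 and 14.9, Casp8 at 21.8, against 18.6 and 11.1, and Foxo3, a listed quiescence factor, at 23.1, against 12.1 and 15.1. Ccl3, a chemokine, reached 29.3 CPM, against 0.847 and 2.31, but 39 of its 47 UMIs came from 1 cell. Parp1, Casp8 and Ccl3 were picked after their values were seen.

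Against the Mki67/Top2a class, 5265 genes were compared, and 45 were higher in the Rrm2/Tyms class (0.855%) and 373 lower (7.08%), with a median log2 fold of −0.06. G2 and mitosis genes made up 58 of the lower ones, with a median log2 fold of −4.09 over 59 compared, and licensing genes 5 of 11 compared, with −0.61. Of these, 47 of the 59 and 6 of the 11 passed the 20 CPM minimum through the Mki67/Top2a class alone, so these counts and medians support nothing either. The largest shortfalls at 50 CPM or more were in Cenpf, Cenpe, Ube2c, Hmmr, Ccnb2, Anln, Hist1h2ap, Cenpa, Ccna2, Mxd3, Ccnb1 and Cdkn3. Of the genes higher than in Mki67/Top2a cells, 12 had at least 50 CPM, and their no-cycle levels stand beside them here. Mustn1 was at 206 CPM in Rrm2/Tyms cells, against 113 in Mki67/Top2a cells and 183 in no-cycle cells, and Opcml at 143, against 80.5 and 133. Aldoa, a glycolytic enzyme, was at 296, against 171 and 304, and Mxd4, a MYC antagonist linked to exit from the cycle, at 160, against 103 and 140. The chemokine Cxcl2 was at 610, against 364 and 477. Tcea3, Creld1, F3, Hebp1, Sat1, Flnc and Mxra8 completed the genes named by rank.

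Brakes of the cycle differed little in sum and in opposite directions in the libraries. The 26 inhibitor and quiescence genes summed to 2961, 3067 and 3047 CPM in the Rrm2/Tyms, Mki67/Top2a and no-cycle classes. The sum was 1.09-fold the Mki67/Top2a level and 1.05-fold the no-cycle level in library 1, and 0.888-fold and 0.903-fold in library 2. Cdkn1c, the p57 inhibitor, stood at 425, 351 and 438 CPM, Cdkn1a, the p21 inhibitor, at 177, 269 and 157 CPM, and Btg2 at 346, 321 and 365 CPM. Cdkn2c, the p18 inhibitor, was at 10.6 CPM in Rrm2/Tyms cells, against 126 and 5.82, and Cdkn2d, the p19 inhibitor, at 27.4, against 102 and 23.3. Cdkn2c was 1.82-fold and Cdkn2d 1.18-fold the no-cycle level.

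Members kept the marks of stromal precursors. The 15 general precursor and fibroblast genes found summed to 86117 CPM in the Rrm2/Tyms class, 80675 in the Mki67/Top2a class and 91620 in the no-cycle class, and 49 extracellular matrix genes to 120821, 111427 and 128035 CPM. Fatty acid oxidation genes, the subject of the series title, summed to 1087, 1110 and 1056 CPM, and 0 of the 17 compared with no-cycle cells were apart, beside background shares of 1.11% higher and 0.247% lower, so nothing is read from this 0. Dpp4-type progenitor genes summed to 6010, 5251 and 5549 CPM, at 0.892-fold the no-cycle level in library 1 and 1.24-fold in library 2. Committed preadipocyte genes summed to 4177, 3775 and 2982 CPM, at 2.31-fold in library 1 and 0.665-fold in library 2, or 1.05-fold and 0.726-fold without the 7 members rich in transcripts of other cell types. Thinned cells were ordered by the ratio of Dpp4-type to committed preadipocyte UMIs and divided in 5 bins of equal size. The Rrm2/Tyms share was 0.565, 0.565, 0.161, 0.565 and 0.888% in the committed to Dpp4-type bins, from 7, 7, 2, 7 and 11 cells. The exact intervals of the bins overlap, and without thinning the shares were 1.74, 1.09, 1.67, 1.60 and 1.96%. With the most abundant marker of each list left out, 1 cell fell in the middle bin (0.0807%, 0.00204 to 0.449%) and 16 in the most Dpp4-type bin (1.29%, 0.740 to 2.09%), so the axis result depends on the markers used.

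**Figure D5:**
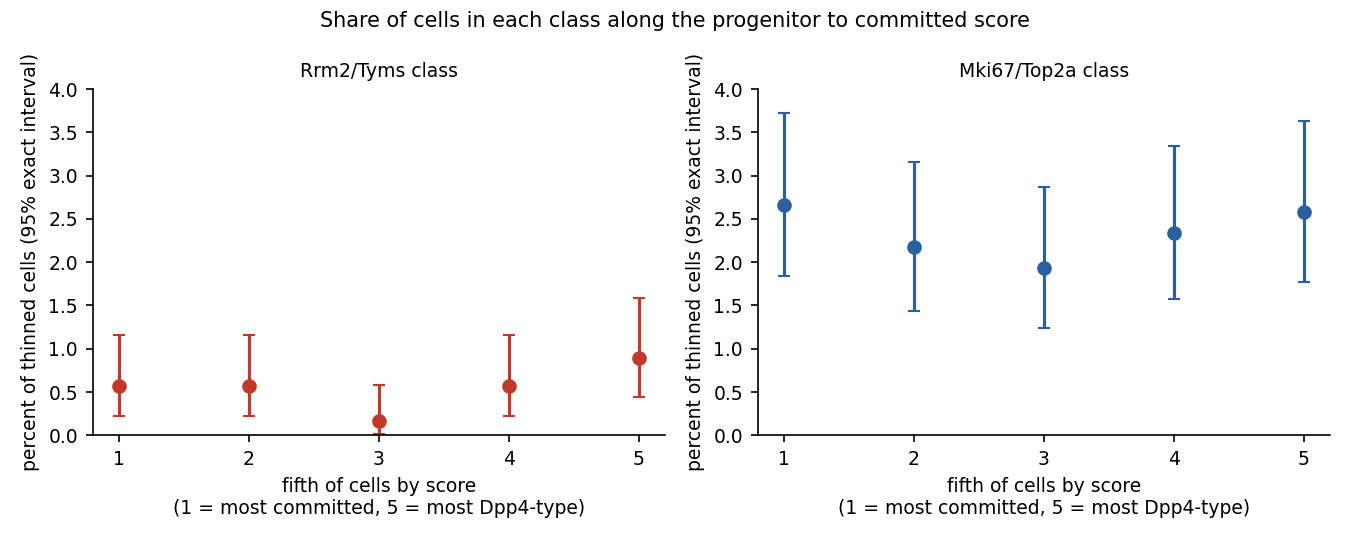
Percent of thinned cells (y axis, 95% exact intervals) in the Rrm2/Tyms class (left) and the Mki67/Top2a class (right) in 5 bins of the cells by the ratio of Dpp4-type to committed preadipocyte marker UMIs (x axis, committed to Dpp4-type). The Rrm2/Tyms share runs between 0.161 and 0.888% with overlapping intervals.

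Transcripts of other cell types were concentrated in few members. Cells above the 99th percentile for endothelial, macrophage or erythroid markers numbered 7 of 111 (6.31%), 5 in library 1 and 2 in library 2, against 17 of 215 Mki67/Top2a cells (7.91%) and 101 of 5388 no-cycle cells (1.87%). The median member held 1 endothelial, 0 macrophage and 1 erythroid UMI, while 1 member held 6197 erythroid UMIs and another 421 endothelial ones. The summed endothelial level was 641 CPM in the Rrm2/Tyms class, 489 in the Mki67/Top2a class and 183 in the no-cycle class, and without such cells 123, 118 and 134 CPM. Licensing genes were 2.36-fold the no-cycle level without them. Listed epithelial genes had 0 UMIs in the class, listed lymphocyte genes 2 and adipocyte genes 25. Xist together with a Y-linked UMI, a sign of 2 cells of different sex in a droplet or of free RNA, occurred in 14 members (12.6%, 7.07 to 20.3%), 27 Mki67/Top2a cells (12.6%) and 353 no-cycle cells (6.55%). Without those cells the licensing sum was 2.10-fold the no-cycle level. The part of doublets and free RNA in the class was not tested.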

How the data were processed

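Droplet RNA counts of flow-sorted adipocyte precursors were used. The authors deposited whole-number UMI counts per gene and barcode (27998 genes, 6905 barcodes), not normalized. Per the labels, the chemistry was 10x Genomics 3′ version 2. Seurat 3.0.1, Cell Ranger and the build mm10 are named in the submitters' processing notes, without their roles. Doublets were not called. Members, gene lists (33 lists, 750 entries, 3 symbols not found) and rules were chosen with earlier results of these data known.

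Counts were summed per class and library and scaled to CPM of all UMIs. Library 1 had 42092816 UMIs and library 2 had 43491307, and 90% of kept cells held between 4773 and 19087 UMIs in the first and between 5508 and 17961 in the second. Intervals are Clopper-Pearson, exact Poisson or exact conditional ratio intervals (95%, scipy 1.17.1). Named genes are the rule genes, up to 8 members apart per list by fold (with none apart, up to 3 by level) and up to 12 genes of at least 50 CPM apart per comparison and direction, without ribosomal, mitochondrial, Gm and Rik genes; other list members were named for their role after their values were seen. Alternatives used edgeR 4.0.16 (TMM) and DESeq2 1.42.0 size factors, other minimums, depth settings and libraries. The class comparison was tested on simulated counts. The values of 1 list member are not reported here.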

Additional observations from a re-analysis of the deposited data

Results flagged for a closer look

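Some lists moved in opposite directions in the libraries when the Rrm2/Tyms class was set against another class, with 1 library a side, and the difference was not tested. Committed preadipocyte genes, among them Fabp4 and Cd36, stood at 2.31-fold the no-cycle level in library 1 and 0.665-fold in library 2. Endothelial markers stood at 7.21-fold and 0.647-fold the no-cycle level, and at 1.98-fold and 0.317-fold the Mki67/Top2a level. Erythroid markers stood at 1.82-fold and 0.429-fold the no-cycle level. Without the cells rich in other types, 5 of them in library 1 and 2 in library 2, the committed list was at 1.05-fold and 0.726-fold, the endothelial list at 0.848-fold and 0.985-fold, and the erythroid list at 1.03-fold and 0.619-fold the no-cycle level. Those 7 cells held 2215 of the 2787 Fabp4 UMIs of the class and 1523 of its 1650 Hba-a1 UMIs, 1441 of them in 1 cell.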

How the results depend on the processing

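No paired analysis was possible because no result came from a test and no replicate number joins samples across conditions. The classes were set against each other within each library. In the thinned setting the rules were applied anew to the thinned counts, so its classes need not hold the same cells. All values below are counts of genes apart, list medians (log2) or list folds of the Rrm2/Tyms class, as in the report, and the cause of each shift was not tested unless fewer cells or genes show it. The analyses without cells rich in other types, without Xist and Y cells, and over list sums were added after the data were seen.

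Genes apart from no-cycle cells (54 higher, 12 lower in the report) numbered 35 and 22 with TMM scaling, 687 and 204 with a minimum of 1 count in each sum, 7 and 1 at 50 CPM, 14 and 3 at 2-fold, 375 and 196 in thinned cells and 552 and 238 with at least 3 Rrm2 and Tyms UMIs. They numbered 492 and 119 in library 1 alone, 211 and 145 in library 2 alone, and 19 lower both without the deepest 5% of cells and without Xist and Y cells. Of the 54, 27 were among the 375 of thinned cells. Genes apart from Mki67/Top2a cells (45 higher, 373 lower) numbered 363 and 906 at 1 count, 12 and 150 at 50 CPM, 4 and 202 at 2-fold, 308 and 634 in thinned cells, 413 and 760 in library 1 and 245 and 798 in library 2. The higher ones numbered 73 with DESeq2 size factors, 69 without the deepest cells, 307 with at least 3 UMIs, 68 with Mki67 and Top2a at 0 and 68 without Xist and Y cells.

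The G2 and mitosis median against no-cycle cells (0.33) was 0.23 with TMM and 0.23 with DESeq2 scaling, 0.93 at 1 count, 0.78 in thinned cells, 0.75 with at least 3 UMIs, 0.14 with Mki67 and Top2a at 0 and 0.59 in library 1. The licensing median (1.74) was 1.25 at 1 count, 2.11 thinned, 2.75 with at least 3 UMIs and 1.36 with Mki67 and Top2a at 0. Against Mki67/Top2a cells the G2 and mitosis median (−4.09) was −4.02 with TMM, −4.04 with DESeq2, −3.75 at 1 count, −4.13 at 50 CPM, −3.37 thinned, −4.004 with depth weights, −3.96 without the deepest cells, −2.97 with at least 3 UMIs, −4.34 with Mki67 and Top2a at 0, −3.95 in library 1, −3.97 in library 2 and −4.05 without cells rich in other types. The licensing median (−0.61) was −0.84 at 1 count, −0.25 at 50 CPM, −0.86 without the deepest cells, −0.92 with Mki67 and Top2a at 0, −0.70 in library 1 and −0.87 without Xist and Y cells, and it changed sign to 0.033 with at least 3 UMIs, which leaves 15 cells.

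The licensing sum over no-cycle cells (2.35-fold) was 3.27 thinned, 3.92 with at least 3 UMIs, 1.98 with Mki67 and Top2a at 0, 2.05 in library 1 and 2.10 without Xist and Y cells. Over Mki67/Top2a cells (0.553) it was 0.780, 0.922, 0.465 and 0.490 in the first 4 of these. The G2 and mitosis sum over no-cycle cells (1.35) was 1.66 thinned, 1.30 with depth weights, 1.29 without the deepest cells, 1.73 with at least 3 UMIs, 1.19 with Mki67 and Top2a at 0, 1.45 in library 1, 1.26 in library 2 and 1.30 without cells rich in other types. Over Mki67/Top2a cells (0.188) it was 0.200, 0.199, 0.241, 0.167, 0.206, 0.176 and 0.174 in those settings, leaving out the weights. The E2F and G1/S sum over Mki67/Top2a cells (0.929) turned to 1.10 thinned and 1.06 with at least 3 UMIs, and the histone sum over no-cycle cells (1.16) to 0.992 in library 2. The class was 0.218% of kept cells at 3 UMIs, 1.28% with Mki67 and Top2a at 0 and 0.549% thinned. With TTTGGCGC as the only E2F motif, 20% of licensing promoters held it.

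Depth limits the class: 96 of 111 members stood at the minimum of 2 UMIs.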
